A study of Mus musculus with 9 samples.

Results

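The natriuretic peptide genes Nppa, Nppb and Nppc, the receptor genes Npr1, Npr2 and Npr3 and the cardiac ankyrin repeat gene Ankrd1 were followed across 3 preparations of mouse heart cells. These 7 genes, out of 19933 tested, were taken as a list of names, chosen with earlier results of these data known. Each was represented by the brightest probe annotated to it alone. Every one of them had 1 such probe, so no choice between probes arose. The preparations were adult cardiac fibroblasts, embryonic cardiac fibroblasts and embryonic cardiomyocytes, each with 3 biological replicates hybridised to separate Affymetrix mouse Gene 1.0 ST arrays. The cardiomyocytes were isolated as positive for Nkx-YFP, a fluorescent reporter named after a family of heart transcription factors. According to the series description, the aim was a search for fibroblast factors that make myocytes divide. Strain, sex, embryonic stage, adult age, pooling of animals and any culture of the cells are stated neither in the sample labels nor in that description.

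Nppa encodes atrial natriuretic peptide (ANP) and Nppb brain natriuretic peptide (BNP), hormones that heart muscle releases in response to stretch and load. Nppc encodes a related peptide, C-type natriuretic peptide (CNP). The receptors made from Npr1, which binds ANP and BNP, and from Npr2, which binds CNP, are guanylyl cyclases that produce the messenger cyclic GMP (cGMP). The receptor encoded by Npr3 has no cyclase domain and takes the peptides up for degradation. In the developing mouse heart Nppa marks the working myocardium of the chambers, and Npr3 is used as a marker of the endocardium, the inner lining. Ankrd1 encodes a protein of heart muscle that sits on titin in the sarcomere and also enters the nucleus, and its transcript is widely used as a readout of stretch and of the coactivator YAP.

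Nppa and Nppb are direct neighbours on mouse chromosome 4, with 0 annotated genes between them in the RefSeq gene table, and Ankrd1 lies on chromosome 19. The 250 bases before the annotated start of these 3 genes are shown because their transcripts followed the same order across the preparations. The sequences are those of RefSeq on build GRCm38.p6, written 5′ to 3′ on the strand of the gene. They span chr4:148000472-148000721 (plus strand) for Nppa, chr4:147985650-147985899 (plus strand) for Nppb and chr19:36119845-36120094 (minus strand) for Ankrd1. Capitals mark matches to 5 short motifs, which were picked with these sequences in view.
Nppa: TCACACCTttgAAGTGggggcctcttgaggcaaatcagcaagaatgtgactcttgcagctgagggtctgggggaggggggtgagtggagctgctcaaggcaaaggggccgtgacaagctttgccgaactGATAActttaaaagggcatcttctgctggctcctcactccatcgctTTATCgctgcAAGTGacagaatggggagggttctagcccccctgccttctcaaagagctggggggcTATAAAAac
Nppb: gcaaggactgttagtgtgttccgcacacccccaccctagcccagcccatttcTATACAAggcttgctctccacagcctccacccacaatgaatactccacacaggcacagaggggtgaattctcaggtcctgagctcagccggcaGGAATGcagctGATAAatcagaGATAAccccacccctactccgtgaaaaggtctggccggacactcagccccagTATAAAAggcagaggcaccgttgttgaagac
Ankrd1: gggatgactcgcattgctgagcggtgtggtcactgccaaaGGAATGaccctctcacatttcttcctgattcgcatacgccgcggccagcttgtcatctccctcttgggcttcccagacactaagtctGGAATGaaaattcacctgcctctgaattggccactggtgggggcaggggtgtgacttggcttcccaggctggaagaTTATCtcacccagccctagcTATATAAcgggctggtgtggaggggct

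The core of GATA factor sites, GATAA on either strand, was found 2 times in Nppa, 2 times in Nppb and 1 time in Ankrd1, and 22.6% of all 32851 RefSeq promoter windows of this length held it. In Nppb the 2 matches lay close together, at 94 to 90 and 83 to 79 bases before the start. The M-CAT core GGAATG, bound by TEAD factors, occurred 1 time in Nppb and 2 times in Ankrd1, against 12.6% of all windows with a match. The T-box element AGGTGTGA was met in Nppa, on the opposite strand as TCACACCT, and in 1.12% of all windows. It stood 3 bases before the first of 2 matches to AAGTG, the core of NK2 homeobox sites, which 40.7% of windows held on either strand. The TATA box motif TATANAA, searched on the strand of the gene, was matched in 6.58% of windows. It was found 1 time each in Nppa and Ankrd1 and 2 times in Nppb. The matches lay 9 to 3 bases before the start in Nppa and 27 to 21 in Ankrd1. Those in Nppb lay at 198 to 192 and 31 to 25 bases. None of these motifs overlapped another in the 3 windows shown. The windows of Nppc, Npr1, Npr2 and Npr3 held 0 matches to the 5 motifs, which says only that these letters are not in those windows.

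Values are given as deposited, on the log2 scale of RMA, a method that corrects background, normalizes arrays to each other and combines the probes of a transcript. Levels of different genes cannot be compared on this scale, and it gives no call of presence, so a low value may be background. Calls rest on limma, fitted on all 19933 genes and 9 arrays, at a Benjamini-Hochberg adjusted p under 0.05. Each difference is a log2 difference with its standard error (SE). The 3 comparisons share arrays, so their values for a gene are not independent.

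The arrays of a group correlated with one another at means from 0.970 to 0.994 over all probes, and the lowest value was that of adult fibroblast replicate 3. Markers of fibroblasts fitted the labels: 10 of 10 were higher in embryonic fibroblasts and 10 of 10 in adult fibroblasts than in cardiomyocytes. Transcripts of heart muscle were present in the embryonic fibroblast arrays as well. The mean of 10 cardiomyocyte markers ran from 7.90 to 8.20 in adult fibroblasts, from 10.33 to 11.00 in embryonic fibroblasts and from 11.87 to 11.99 in cardiomyocytes. Troponin T, Tnnt2, had a mean of 13.38 in embryonic fibroblasts and 13.82 in cardiomyocytes, a difference that was not called (-0.44, limma adjusted p = 0.328). In adult fibroblasts it read 9.40, 10.62 and 9.47. Of the 10 markers, 8 were called lower in embryonic fibroblasts than in cardiomyocytes, Actn2 (-1.86) and titin, Ttn (-1.46), among them. Nkx2-5, the best known heart gene of the Nkx family, was not called between any groups (8.23, 8.25 and 8.30 as means in adult fibroblasts, embryonic fibroblasts and cardiomyocytes). Macrophage markers were higher in 6 of 8 cases in embryonic fibroblasts against cardiomyocytes, 3 of 8 in adult against embryonic fibroblasts and 7 of 8 in adult fibroblasts against cardiomyocytes. Of 8 smooth muscle markers 2, 2 and 3 were higher and 1, 3 and 3 lower in these comparisons. Glial markers had 0 of 4 called by limma between the embryonic groups (0 at an unadjusted p under 0.05) and 1 of 4 higher in adult fibroblasts in each other comparison. Y-linked genes (Uty, Eif2s3y and Kdm5d) ran from 4.67 to 6.87 in the adult arrays and from 7.84 to 9.33 in the embryonic ones, so sex and age cannot be told apart in comparisons with adult cells.

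Embryonic fibroblasts differed from embryonic cardiomyocytes in 4 of the 7 genes. Nppa, Nppb and Ankrd1 were 2.68-fold to 3.54-fold lower in the fibroblasts, and Npr3 was 2.48-fold higher. Thus 1 of 7 was higher and 3 of 7 lower, while among all genes 10.3% were called higher and 11.1% lower in this comparison. Nppc, Npr1 and Npr2 did not pass the test.

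Adult fibroblasts had lower values than embryonic fibroblasts for the same 4 genes, by 3.39-fold for Nppb, 7.11-fold for Nppa, 9.34-fold for Ankrd1 and 10.6-fold for Npr3. Of all genes 11.2% were called lower and 8.34% higher, and 0 of the 7 were called higher by limma (0 also at an unadjusted p under 0.05). Against cardiomyocytes the adult fibroblasts were 4.28-fold lower in Npr3, 9.97-fold lower in Nppb, 25.0-fold lower in Ankrd1 and 25.1-fold lower in Nppa. The share of all genes was 18.2% lower and 17.4% higher there, and again 0 of the 7 were higher by limma (0 at an unadjusted p under 0.05). The median difference of the 7 genes was -0.10, -1.76 and -2.10 in the 3 comparisons, and that of all genes -0.0003, 0.04 and 0.06. In bulk RNA of this kind fewer cells of a type and less RNA per cell cannot be told apart.

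**Figure D1:**
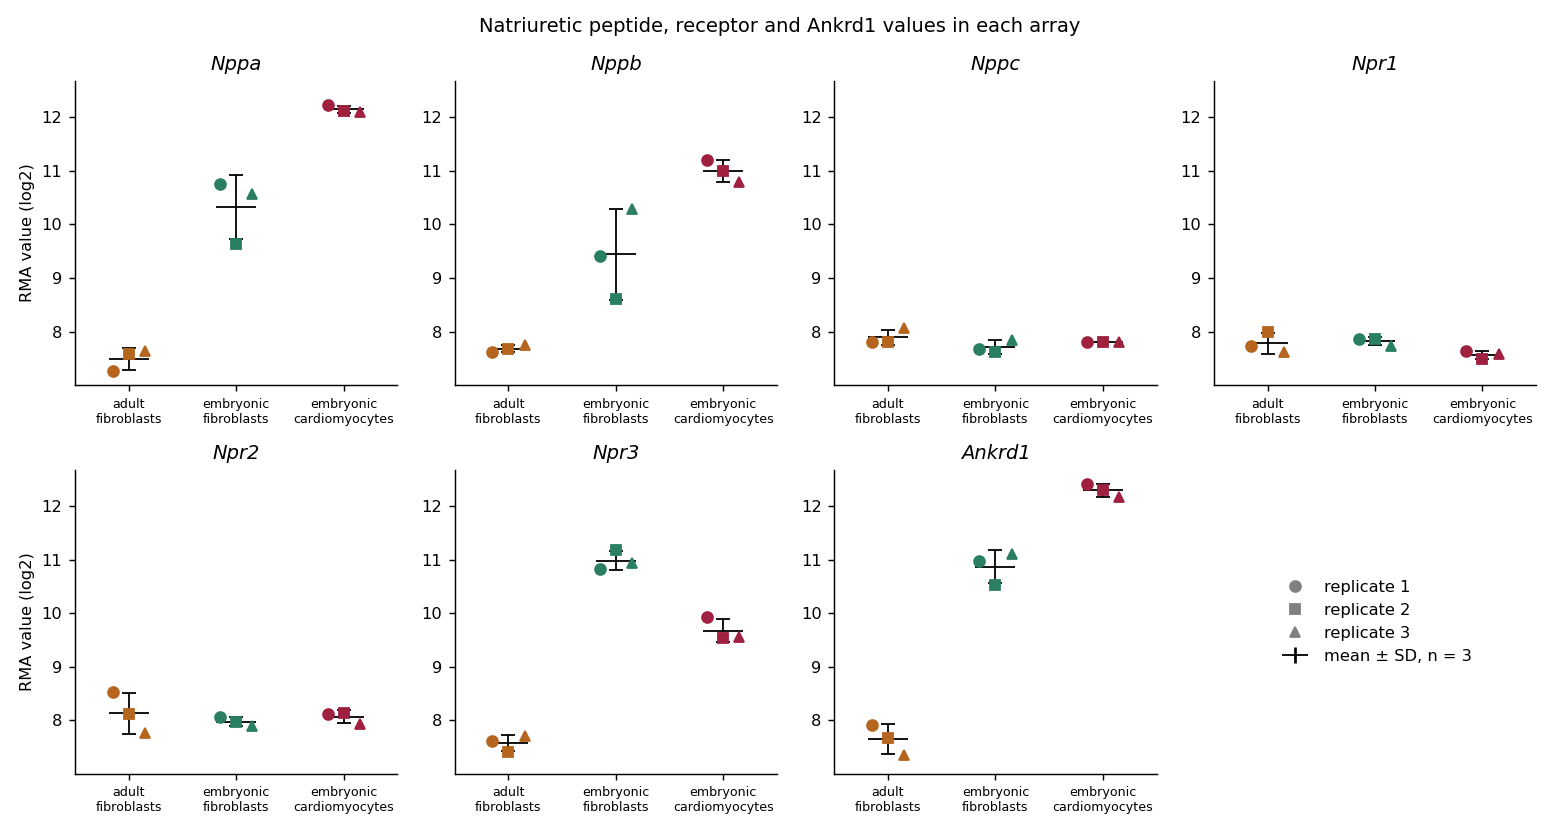
RMA values (log2, vertical axis) of the 7 genes in each array, with adult fibroblasts at the left, embryonic fibroblasts in the middle and embryonic cardiomyocytes at the right of each panel. Symbols are replicates and bars the mean ± SD of 3 arrays. The groups are separate in Nppa, Nppb, Npr3 and Ankrd1, and Npr3 alone of these has its highest values in embryonic fibroblasts. The share of all genes with separate groups was not counted.

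Nppa, the ANP gene, read 7.26, 7.58 and 7.64 in adult fibroblasts, 10.76, 9.64 and 10.56 in embryonic fibroblasts, and 12.23, 12.11 and 12.10 in cardiomyocytes. The 3 groups did not overlap, and the embryonic fibroblasts lay between the other two with the widest spread. Their difference from cardiomyocytes was -1.82 ± 0.25 (SE, n = 3 per group, limma adjusted p = 0.000963). Adult fibroblasts differed from embryonic fibroblasts by -2.83 ± 0.25 (limma adjusted p = 5.88e-05). The gap between adult fibroblasts and cardiomyocytes, -4.65 ± 0.25 (limma adjusted p = 1.04e-06), placed Nppa among the 19 most negative differences of 19933 genes. Neighbours in the order of the 3 levels thus differed beyond the spread of the arrays.

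Nppb, the BNP gene, had 7.61, 7.68 and 7.74 in adult fibroblasts, 9.42, 8.61 and 10.29 in embryonic fibroblasts, and 11.21, 10.99 and 10.79 in cardiomyocytes. The order was that of Nppa, and the embryonic fibroblast arrays again scattered most, with an SD of 0.84 against 0.06 in adult fibroblasts and 0.21 in cardiomyocytes. Embryonic fibroblasts were below cardiomyocytes by a log2 difference of -1.56 ± 0.34 (SE, n = 3 per group, limma adjusted p = 0.00963). Between adult and embryonic fibroblasts the difference was -1.76 ± 0.34 (limma adjusted p = 0.00520), and between adult fibroblasts and cardiomyocytes -3.32 ± 0.34 (limma adjusted p = 4.50e-05).

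Ankrd1 stood at 7.91, 7.67 and 7.35 in adult fibroblasts, 10.98, 10.52 and 11.11 in embryonic fibroblasts, and 12.42, 12.29 and 12.17 in cardiomyocytes. No array of a group reached into the range of another. The embryonic fibroblasts differed from cardiomyocytes by -1.42 ± 0.18 (SE, n = 3 per group, limma adjusted p = 0.000588). Adult fibroblasts fell below embryonic fibroblasts by a log2 difference of -3.22 ± 0.18 (limma adjusted p = 3.54e-06). Their difference from cardiomyocytes of -4.65 ± 0.18 (limma adjusted p = 2.14e-07) was among the 20 most negative of all genes, next to that of Nppa.

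Cardiomyocyte markers moved with these 3 genes. In embryonic fibroblasts 8 of the 10 markers were below the cardiomyocyte level, with a list median of -1.40. Adult fibroblasts had 9 of 10 lower than embryonic fibroblasts (median -2.87) and 9 of 10 lower than cardiomyocytes (median -4.21). Embryonic fibroblast replicate 2 had the lowest value of its group in Nppa, Nppb and Ankrd1, and the lowest mean of the cardiomyocyte markers too (10.33, against 10.68 and 11.00 in replicates 1 and 3). Taken as the gap to that marker mean within an array, Nppa ran from -0.68 to 0.08 in embryonic fibroblasts and from 0.12 to 0.26 in cardiomyocytes. For Ankrd1 the gap ran from 0.11 to 0.30 in embryonic fibroblasts and from 0.30 to 0.45 in cardiomyocytes. Nppb, with gaps from -1.72 to -0.70 in embryonic fibroblasts and from -1.08 to -0.76 in cardiomyocytes, overlapped between the groups. In adult fibroblasts the gaps ran from -0.64 to -0.30 for Nppa, from -0.59 to 0.01 for Ankrd1 and from -0.52 to -0.21 for Nppb. Those of Nppb thus lay above the gaps of both embryonic groups. The part that myocytes in the fibroblast preparations had in the levels of Nppa, Nppb and Ankrd1 was not tested.

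Of 8 atrial markers, 4 fell in embryonic fibroblasts against cardiomyocytes (Myl4, Myl7, Tbx5 and Bmp10) and 1 rose (Nr2f2, 0.81). Adult fibroblasts had 4 lower and 0 higher by limma in each of their comparisons (0 higher also at an unadjusted p under 0.05). The atrial genes Sln, Kcna5 and Stard10 were not called in any comparison. Ventricular markers fell in 6 of 7 cases between the embryonic groups and in 6 of 7 in adult fibroblasts against cardiomyocytes. Between the fibroblasts 4 of these fell and 1 rose, the gap junction gene Gja1 (0.41). The mean of 8 atrial markers ran from 7.16 to 7.19 in adult fibroblasts, from 8.12 to 8.41 in embryonic fibroblasts and from 8.92 to 9.08 in cardiomyocytes. That of 7 ventricular markers ran from 8.15 to 8.30, from 9.50 to 9.91 and from 10.69 to 10.82 in the same groups. The atrial means rest on the few markers that were called, of which Myl4 and Myl7 also belong to the list of the fetal programme, and the chamber that supplied Nppa was not measured.

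**Figure D2:**
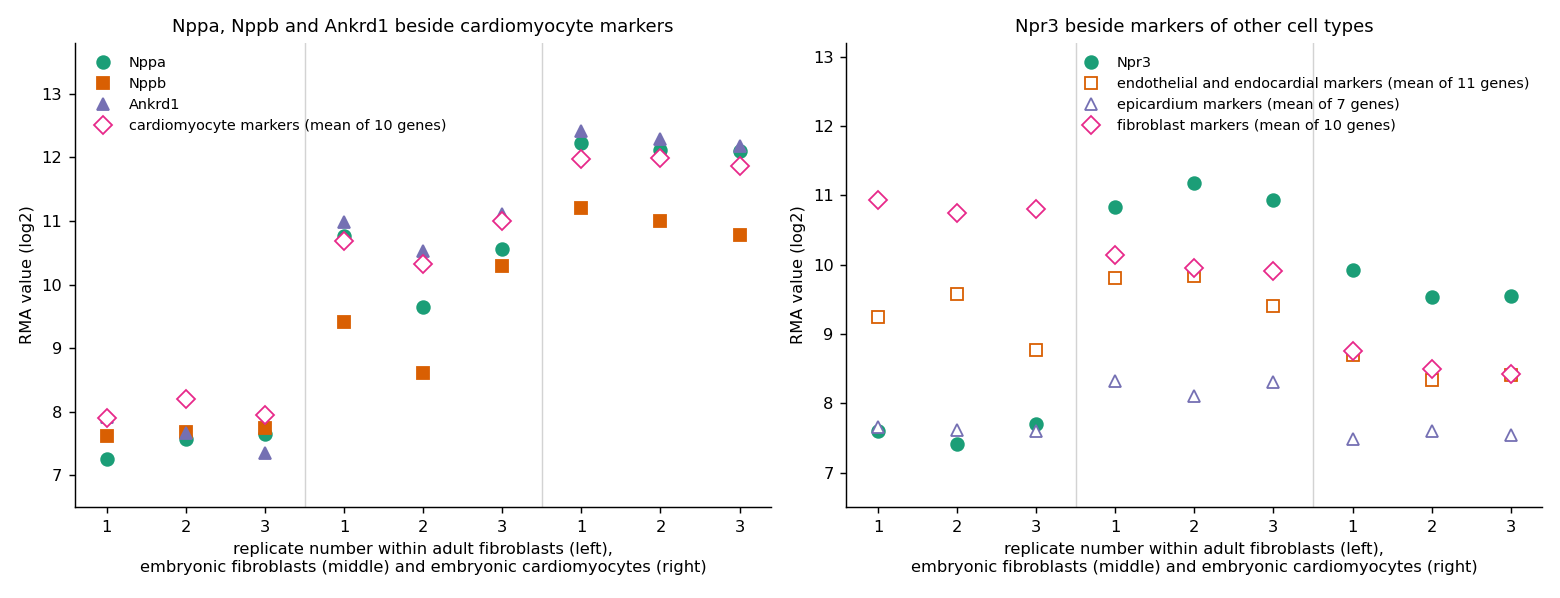
RMA values (log2, vertical axis) in each of the 9 arrays (horizontal axis, replicate number within the group), for Nppa, Nppb and Ankrd1 with the mean of 10 cardiomyocyte markers at the left, and for Npr3 with the means of endothelial, epicardial and fibroblast markers at the right. Filled symbols are single genes and open symbols list means. In embryonic fibroblasts replicate 2 is lowest for Nppa, Nppb, Ankrd1 and the cardiomyocyte markers and highest for Npr3.

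Npr3, the clearance receptor, showed another order. It read 7.61, 7.42 and 7.70 in adult fibroblasts, 10.83, 11.18 and 10.93 in embryonic fibroblasts, and 9.93, 9.54 and 9.55 in cardiomyocytes. Embryonic fibroblasts were highest in every array, adult fibroblasts lowest, and no groups overlapped. The embryonic fibroblasts exceeded cardiomyocytes by 1.31 ± 0.14 (SE, n = 3 per group, limma adjusted p = 0.000277). Adult fibroblasts were lower than embryonic fibroblasts by a log2 difference of -3.41 ± 0.14 (limma adjusted p = 8.72e-07), which was among the 22 most negative of all genes. They were also lower than cardiomyocytes (-2.10 ± 0.14, limma adjusted p = 2.83e-06).

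Beside Npr3, 10 of 11 endothelial and endocardial markers were higher in embryonic fibroblasts than in cardiomyocytes, with a median difference of 1.02. Pecam1, an adhesion molecule of endothelial cells, was higher there by 1.80 and the endothelial cadherin Cdh5 by 1.83. Between adult and embryonic fibroblasts 2 of 11 were lower and 0 higher by limma, with a median of -0.43. The lower ones were Emcn (-1.29, limma adjusted p = 0.0177) and Tek (-0.65, limma adjusted p = 0.0216). Both were also higher in embryonic fibroblasts than in cardiomyocytes (1.84 and 1.61). Between the fibroblasts neither Pecam1 (-0.44, limma adjusted p = 0.496) nor Cdh5 (-0.39, limma adjusted p = 0.510) passed the test. Adult fibroblasts exceeded cardiomyocytes in 6 of the 11 markers, by 1.36 for Pecam1 and 1.44 for Cdh5, whereas Npr3 was lower in that comparison. Means of the 11 markers ran from 8.77 to 9.58 in adult fibroblasts, from 9.41 to 9.83 in embryonic fibroblasts and from 8.34 to 8.70 in cardiomyocytes.

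Epicardial markers, from the outer layer of the heart, were on average highest in embryonic fibroblasts. Aldh1a2 was an exception, with means of 9.37 in adult and 9.12 in embryonic fibroblasts. The mean of 7 epicardial genes ran from 7.60 to 7.66 in adult fibroblasts, from 8.11 to 8.32 in embryonic fibroblasts and from 7.48 to 7.60 in cardiomyocytes. Of these, 3 were higher in embryonic fibroblasts than in cardiomyocytes, and 4 were lower in adult than in embryonic fibroblasts. The part of endocardial or epicardial cells in the Npr3 values was not tested.

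The cyclase receptors stayed within a narrow range. Npr1, the receptor for ANP and BNP, read 7.73, 7.999 and 7.62 in adult fibroblasts, 7.86, 7.86 and 7.73 in embryonic fibroblasts, and 7.64, 7.49 and 7.57 in cardiomyocytes. The embryonic groups did not overlap, with the fibroblasts above the cardiomyocytes. That difference of 0.25 ± 0.10 (SE, n = 3 per group) missed the threshold (limma adjusted p = 0.130, with a 95% interval from 0.02 to 0.49 before adjustment), but passed with only the embryonic groups fitted and with array weights (adjusted p = 0.0433 and 0.0203, over a range from 0.0203 to 0.328). For adult fibroblasts against cardiomyocytes the difference was 0.22 ± 0.10 (limma adjusted p = 0.142). It passed with array weights and without adult fibroblast replicate 3 (adjusted p = 0.0365 and 0.0416, over a range from 0.0365 to 0.386). Adult and embryonic fibroblasts overlapped, with a difference of -0.03 and a 95% interval from -0.27 to 0.20.

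Npr2, the receptor for CNP, read 8.52, 8.12 and 7.76 in adult fibroblasts, 8.07, 7.96 and 7.89 in embryonic fibroblasts, and 8.12, 8.14 and 7.92 in cardiomyocytes. The groups overlapped, and the adult arrays spread over the whole range of the others. No difference passed the test, and the 95% intervals ran from -0.47 to 0.29 for embryonic fibroblasts against cardiomyocytes, from -0.22 to 0.54 for adult against embryonic fibroblasts and from -0.31 to 0.45 for adult fibroblasts against cardiomyocytes (limma adjusted p = 0.799, 0.566 and 0.787).

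Nppc, the CNP gene, read 7.81, 7.81 and 8.06 in adult fibroblasts, 7.67, 7.62 and 7.85 in embryonic fibroblasts, and 7.81 in all 3 cardiomyocyte arrays. The value 7.81 recurred in 5 of the 9 arrays, to the last digit deposited. No difference passed the test (limma adjusted p = 0.563, 0.235 and 0.542 in the 3 comparisons). The widest 95% interval limit was 0.39, for adult against embryonic fibroblasts (0.18 ± 0.09). Differences of dim genes are compressed by RMA, so these intervals bound the deposited values and not the transcripts.

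**Figure D3:**
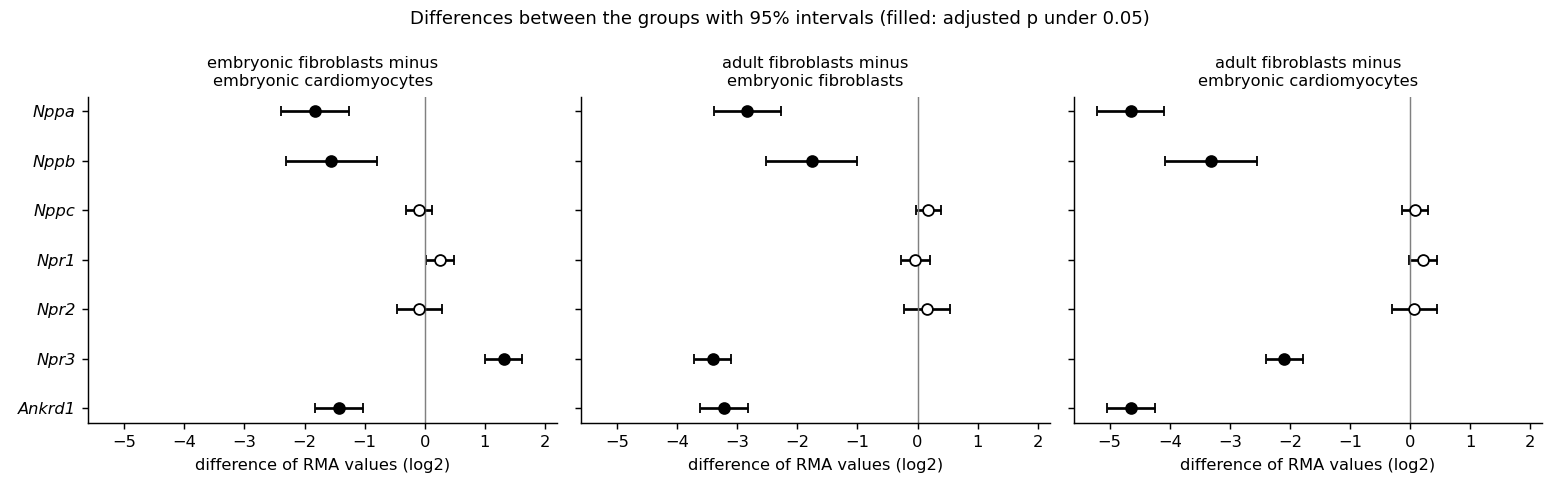
Differences of RMA values (log2, horizontal axis) for the 7 genes in the 3 comparisons, with 95% intervals from limma. Filled points passed an adjusted p under 0.05. Nppa, Nppb and Ankrd1 lie left of 0 in all panels, Npr3 lies right of 0 only for embryonic fibroblasts against cardiomyocytes, and Nppc, Npr1 and Npr2 lie near 0.

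Genes whose values over the 9 arrays were most like those of the 4 variable members were taken from 2873 genes with group means at least 1 log2 unit apart. These correlations describe arrays that share 3 groups, and carry no test. For Nppa they were Myh6 (Pearson r = 0.995), the alpha myosin heavy chain, Palld (0.994), Fabp3 (0.994), Actn2 (0.994) and Pgam2 (0.993), which serve the sarcomere, actin fibres or muscle metabolism. For Nppb they were Uqcr10 (0.996), Cox7a1 (0.994), Ndufv2 (0.994) and Ndufb8 (0.993), which encode subunits of the respiratory chain, and Fundc2 (0.993). Ankrd1 was matched by Fdft1 (0.997), Kif22 (0.997), Trappc1 (0.997), Ect2 (0.997) and Gtf2i (0.997), and Kif22 and Ect2 act in cell division. The genes most like Npr3 were Clca3a1 (0.996), Tspan6 (0.992), Nrk (0.991), Gcnt1 (0.989) and the matrix protein gene Frem1 (0.987). Among the members themselves r was 0.975 for Nppa and Nppb, 0.985 for Nppa and Ankrd1, and 0.683 for Nppa and Npr3.

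Genes that act in the processing and clearance of the peptides were called in both directions. Of 8 such genes, 1 rose and 2 fell in embryonic fibroblasts against cardiomyocytes, 1 rose and 2 fell in adult against embryonic fibroblasts, and 2 rose and 2 fell in adult fibroblasts against cardiomyocytes. Corin, the protease that cuts the ANP precursor, averaged 7.97 ± 0.07 (SD, n = 3) in adult fibroblasts, 8.49 ± 0.10 in embryonic fibroblasts and 9.44 ± 0.36 in cardiomyocytes. It had the order of Nppa, with differences of -0.96 between the embryonic groups (limma adjusted p = 0.00232), -0.52 between the fibroblasts (adjusted p = 0.0469) and -1.47 between adult fibroblasts and cardiomyocytes (adjusted p = 5.96e-05). Ide, a protease that degrades insulin and ANP, was lower in embryonic fibroblasts than in cardiomyocytes (-1.44) and in adult fibroblasts than in cardiomyocytes (-1.98). Dpp4, a peptidase that trims BNP, was higher in embryonic fibroblasts than in cardiomyocytes (1.80) and lower in adult than in embryonic fibroblasts (-1.96). These are the signs seen for Npr3. Between adult fibroblasts and cardiomyocytes, where Npr3 was lower, Dpp4 was not called (-0.16, limma adjusted p = 0.594). Pcsk6, a convertase that activates corin, was higher in adult fibroblasts than in embryonic fibroblasts (1.07) and cardiomyocytes (0.84), as was Furin against cardiomyocytes (0.55). Neprilysin, Mme, differed by 0.65 between the embryonic groups, which missed the threshold (limma adjusted p = 0.309).

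Among cyclases and effectors of cGMP, calls went in both directions. None of 8 other guanylyl cyclases was called by limma between the embryonic groups (1 higher and 0 lower at an unadjusted p under 0.05). Adult fibroblasts were lower than embryonic fibroblasts in Gucy1b1 (-1.03) and Gucy1a1 (-0.42), the subunits of the nitric oxide receptor. Against cardiomyocytes they were lower in Gucy1b1 (-0.67) and higher in Gucy1a2 (0.79). Of 12 measured cGMP effectors, 1 rose and 1 fell between the embryonic groups, and 1 rose and 3 fell between the fibroblasts. The first pair was the channel gene Trpc6 (0.44) and phospholamban, Pln (-1.78), a calcium pump regulator of heart muscle that is also among the cardiomyocyte markers. In adult against embryonic fibroblasts Rgs4 rose (1.15), while Pln (-2.79), the cGMP-dependent kinase Prkg1 (-0.54) and Trpc6 (-0.38) fell. Against cardiomyocytes, adult fibroblasts showed 1 rise, in Rgs4 (1.21), and 2 falls, in Pln (-4.57) and Prkg1 (-0.40).

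Phosphodiesterases, which split cGMP, were led by Pde1a. It averaged 10.65 ± 0.16 (SD, n = 3) in adult fibroblasts, 9.74 ± 0.20 in embryonic fibroblasts and 7.32 ± 0.14 in cardiomyocytes. The differences were 2.42 ± 0.13 between the embryonic groups (SE, limma adjusted p = 1.86e-05) and 0.91 ± 0.13 between the fibroblasts (adjusted p = 0.000939). Of the 10 genes, 2 rose and 1 fell in embryonic fibroblasts against cardiomyocytes, the others called being Pde5a (0.71), the target of sildenafil, and Pde3b (-0.77). In adult against embryonic fibroblasts 3 rose and 1 fell, with Pde10a (0.77) and Pde9a (0.39) higher and Pde5a (-0.89) lower. Pde9a is known to act on cGMP made in response to natriuretic peptides in heart muscle. In adult fibroblasts against cardiomyocytes 4 rose and 2 fell, including Pde1a (3.33), Pde10a (1.12), Pde2a (0.68) and Pde3b (-0.99).

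**Figure D4:**
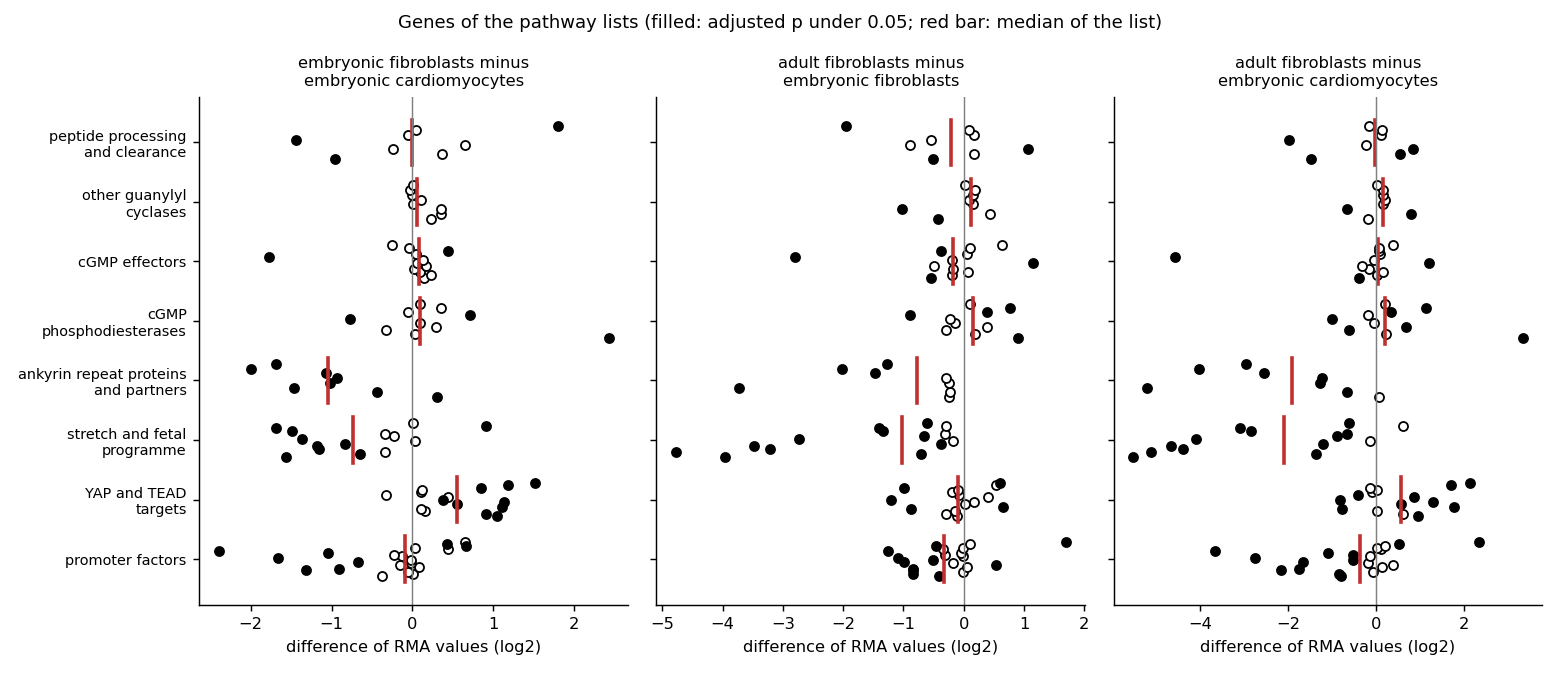
Differences of RMA values (log2, horizontal axis, scaled separately in each panel) of single genes in 8 pathway lists in the 3 comparisons. Filled points passed an adjusted p under 0.05 and red bars are list medians. The lists around cGMP have medians between -0.18 and 0.21, while those of the ankyrin repeat partners and the fetal programme have medians from -0.74 to -2.09.

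Of 8 relatives and partners of Ankrd1, 7 fell and 1 rose in embryonic fibroblasts against cardiomyocytes (median -1.04). The largest falls were in the calcium store protein Casq2 (-1.99), the ubiquitin ligase Trim63 (-1.69), titin, Ttn (-1.46), and desmin, Des (-1.07). Trim63 read 8.178 in all 3 embryonic fibroblast arrays, the same to the last digit deposited. Ankrd2, the relative of Ankrd1 best known from skeletal muscle, was the gene that rose (0.30, limma adjusted p = 0.0376), whereas the relative Ankrd23 fell (-0.44, adjusted p = 0.0194). In adult against embryonic fibroblasts 4 fell, 0 rose and 4 were not called by limma (median -0.78), led by Ttn (-3.73), and against cardiomyocytes 7 fell and 0 rose (median -1.90), led by Ttn (-5.19).

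The list of the fetal and stretch programme held 14 genes, among them general genes of heart muscle such as Mybpc3, also a cardiomyocyte marker here. In embryonic fibroblasts against cardiomyocytes 8 fell and 1 rose (median -0.74), with Mybpc3 (-1.69), Myh7 (-1.56), Hspb7 (-1.49) and Csrp3 (-1.36) furthest down. The gene that rose was Ccn2 (0.91), which encodes a matricellular growth factor. Adult fibroblasts had 11 genes lower and 0 higher than embryonic fibroblasts (median -1.02), and 12 lower and 0 higher than cardiomyocytes (median -2.09). Actc1 (-4.77), Myh7 (-3.95), Myl7 (-3.48) and Myl4 (-3.21) showed the largest differences between the fibroblasts. The list shares genes with the cardiomyocyte and atrial markers.

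Of 15 other genes listed as targets of YAP and its partner TEAD, 9 rose, 0 fell and 6 were not called by limma in embryonic fibroblasts against cardiomyocytes (median 0.55, with 10 higher and 1 lower at an unadjusted p under 0.05). The lower one was Tead1, at -0.33 (limma adjusted p = 0.0886). The largest rises were in tissue factor, F3 (1.52), Fjx1 (1.17), Crim1 (1.14) and the receptor kinase Axl (1.11). In adult against embryonic fibroblasts 2 rose and 3 fell (median -0.09), with Ptpn14 (-1.21), Nt5e (-0.99) and Ajuba (-0.88) lower and Axl (0.65) and F3 (0.61) higher. Against cardiomyocytes 7 rose and 3 fell in adult fibroblasts (median 0.57), led by F3 (2.12), Axl (1.76), Fjx1 (1.71) and Crim1 (1.30).

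Transcription factors known to act on natriuretic peptide promoters fell in 6 of 20 cases and rose in 2 in embryonic fibroblasts against cardiomyocytes. Hey2 (-2.39), Myocd (-1.66), Tbx5 (-1.31) and Irx4 (-1.04) showed the largest differences. Hey2 and Irx4 are factors of ventricular muscle, Tbx5 is a T-box activator of Nppa, and Myocd is a coactivator of serum response factor. The list mixes activators with repressors, and the effect of any of them on Nppa or Nppb was not tested. Adult fibroblasts had 9 lower and 2 higher than embryonic fibroblasts, with the mesenchymal factor Prrx1 higher (1.69) and Hey2 (-1.26), Myocd (-1.10) and Mef2c (-0.99) lower. Against cardiomyocytes 10 were lower and 2 higher, led by Hey2 (-3.65), Myocd (-2.76), Prrx1 (2.34) and Tbx5 (-2.16). The list medians were -0.09, -0.32 and -0.36 in the 3 comparisons.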

How the data were processed

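Messenger RNA of 9 mouse samples, 3 in each of 3 groups read from the sample titles, was measured on Affymetrix mouse Gene 1.0 ST arrays. The authors deposited log2 values made with RMA, per the submitters' processing notes; the log base was read from the range of the values (2.70 to 14.20), and the sources used here give no version, genome build or annotation. The platform annotation gave 1 gene symbol to 21776 of 28767 probes, several to 1618 and none to 5373; the last 2 kinds were left out. Symbols were checked by Entrez identifier against RefSeq of GRCm38.p6, which held 21686 and changed 0. The probe with the highest mean stood for each of 19933 genes. The table had 0 columns of other samples.

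A group-mean model was fitted with limma 3.58.1 (lmFit, eBayes) in R 4.3.3, with 9.21 degrees of freedom, tests two-sided and no filter; it was tested on simulated data. The number of arrays limits the precision. Figures used matplotlib 3.10.9 in Python 3.11.15. Named were the 7 members, up to 4 called genes with the largest difference in each list and comparison, and the 5 genes most like each member whose group means span at least 1; predicted loci were left out of these. Mme, Ankrd2, Ankrd23, Ccn2, Tead1, Gata4, Gata6, Sln, Kcna5, Stard10 and Gja1 fell outside this rule and were named after their values were seen. So were F3 and Nr2f2 in single comparisons. Tnnt2, Nkx2-5, Pecam1 and Cdh5 were named by a separate choice of markers. Not every gene that met the rule was named, above all in the marker lists. Members and lists were chosen with earlier results of these data known. Itpr1, in the list of cGMP effectors, was not analysed here.

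As alternatives, the fit was repeated with the replicate number as a block, median centring, quantile normalization, a filter below the 30th percentile, the mean of all probes, fits of 2 groups, array weights, an intensity trend with a robust prior, and leaving out each array.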

Additional observations from a re-analysis of the deposited data

How the results depend on the processing

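Each of the 21 differences of the 7 genes was recomputed under 17 alternatives. Of 357 values, 353 kept their direction where called and their side of the threshold, 0 lost it, 0 reversed and 4 passed only in the alternative, all of them in Npr1. Npr1 passed in embryonic fibroblasts against cardiomyocytes with only these groups fitted (0.251) and with array weights (0.295), and in adult fibroblasts against cardiomyocytes with array weights (0.268). Leaving out 1 array moved the last difference between 0.110 and 0.299, and it passed without adult fibroblast replicate 3. The cause was not tested. The called differences stayed between -2.04 and -1.48 for Nppa, -1.98 and -1.14 for Nppb, -1.54 and -1.25 for Ankrd1 and 1.21 and 1.44 for Npr3 between the embryonic groups when single arrays were left out. The Nppb call came nearest to the threshold without cardiomyocyte replicate 1 (adjusted p = 0.0448, over a range from 0.000655 to 0.0448). With the replicate number as a block 4 members were called in each comparison, and the count of all genes lower in embryonic fibroblasts than in cardiomyocytes was 2147 against 2212; the block changed no call of a member. Deviations of same-numbered arrays from their group means correlated between -0.195 and 0.198, so the numbers were not taken as pairs.

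Counts over all genes moved more. With array weights, 3103 genes were higher and 3362 lower in embryonic fibroblasts than in cardiomyocytes, against 2054 and 2212, and 2519 were higher in adult than in embryonic fibroblasts, against 1662. Leaving out 1 array gave 1452 to 2830 genes lower in embryonic fibroblasts than in cardiomyocytes, the lowest without embryonic fibroblast replicate 2. RMA values hold no background measure, which limits what can be said of Nppc, Npr1 and Npr2 and of the adult levels of the other 4 genes.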
